A study of Mus musculus with 24 samples.

Results

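Loss of Prdm16 in the cortical ventricular zone at E15.5 was described over 3 libraries from conditional knockout (cKO) embryos and 3 from wild-type (WT) embryos, each group with libraries A, B and C. Genes were taken if they reached a value of 10 in at least 3 of these 6 libraries, leaving 15965 of the 22529 genes in the table. All embryos were of the C57BL/6 strain, and the labels give no treatment. Days E11.5, E13.5 and E17.5 were sampled as well, for 24 libraries in all. The sources used here do not give the Cre driver, the deleted exons or the number of embryos behind a library. The p-values thus measure only how far these libraries spread, and some of that spread may be technical. Values are reads normalized by the authors to a common depth, and differences are log2(value + 1) of cKO minus WT with the SE of the limma fit and its adjusted p.

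Prdm16 is a zinc-finger transcriptional regulator of the PRDM family. It is made in radial glia, the progenitors that line the ventricle, and is turned down as cells leave the ventricular zone to become neurons. Radial glia first give rise to deep-layer neurons and later to upper-layer neurons, often through intermediate progenitors, and E15.5 lies in the period when upper-layer neurons are made.

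Recovered reads ran from 33864039 to 38879931 per library. WT libraries B and C held transcripts of skin and connective tissue that WT A and the cKO libraries largely lacked. The summed level of 16 epidermal genes was 457 in WT A, 26677 in WT B and 13559 in WT C, against 429, 500 and 445 in the cKO libraries. The basal keratin gene Krt5 read 1.95 in WT A, 6658 in WT B and 3311 in WT C, and the adhesion gene Dsg3 was at 0 in WT A and in all 3 cKO libraries. The summed level of 12 genes of meninges and fibroblasts was 1883 in WT A, 120853 in WT B and 59585 in WT C, against 1480 to 2454 in cKO. WT C lay close to a sum of 49.2% of WT A and 49.5% of WT B, and cKO C close to 76.3% of cKO A and 24% of cKO B, so the C libraries may not be separate samples. Called genes were therefore checked against WT A, and a difference is said to hold when WT A lay outside the cKO range and differed from the cKO mean by at least 0.5 times the fitted difference.

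Prdm16 itself did not pass the test at E15.5. WT libraries A, B and C were at 2632, 2504 and 2600, and cKO libraries at 2458, 2025 and 2345. The 3 cKO values lay below the 3 WT values, but the difference was small (-0.18 ± 0.14, adjusted p = 0.93). In the same fit Prdm16 differed by -1.56 on E13.5 and 0.76 on E17.5, where the libraries labelled cKO read higher. Where in the gene the reads fall relative to the deletion cannot be seen in a table of reads per gene, so the label of the E15.5 cKO libraries rests on the submitters alone. Of 112 genes tested within 5 Mb of Prdm16, 1 was higher, a predicted gene, and none was lower, beside 0.877% and 1.41% of all genes tested.

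Limma called 140 genes higher in cKO (0.877% of those tested) and 225 lower (1.41%). All 140 higher genes had groups that did not overlap, a pattern shown by 13.3% of all genes tested, and all 140 held against WT A. Groups did not overlap in 201 of the 225 lower genes, a pattern shown by 7.87% of all genes tested. Of these 225, 111 held (0.695% of those tested) and 114 did not. Values in WT B were a median of 5.18 times those in WT A among the lower genes that did not hold, 1.2 times among those that held and 0.958 times among the higher genes. With WT A as the only control, 45 genes were higher (0.282%) and 11 lower (0.0689%), and 40 and 11 of these were among the calls above. A fit with WT A alone has no spread within WT at E15.5, so its p-values rest on the spread of the other groups. With 5 C libraries of the series left out, 28 were higher and 11 lower, all of them among the calls above. Of the 51 genes named here by rule that passed, 17 did so with WT A alone: Robo3, Pdlim3, Cyp26b1, Tll1, Pdzd3, Tacr1, Sfrp4, Tac2, Gabra2, Mecom, Dhrs3, Slc14a2, Loxl1, Col22a1, Smoc1, Thsd4 and Mfge8. At an unadjusted p under 0.05, 3.56% of all genes tested were higher and 6.26% lower. A set of 24 higher and 10 lower genes passed in every one of these fits and in edgeR. Of the genes tested, 59 had entered through 1 group alone, and 26 of these were called, so their difference was in part set by the filter. Fgf15, Gm26793, Pdzd3 and Cldn11, named below, entered through cKO alone, and Slc14a2, Angptl1, Ltbp2 and Fzd5 through WT alone.

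**Figure D1:**
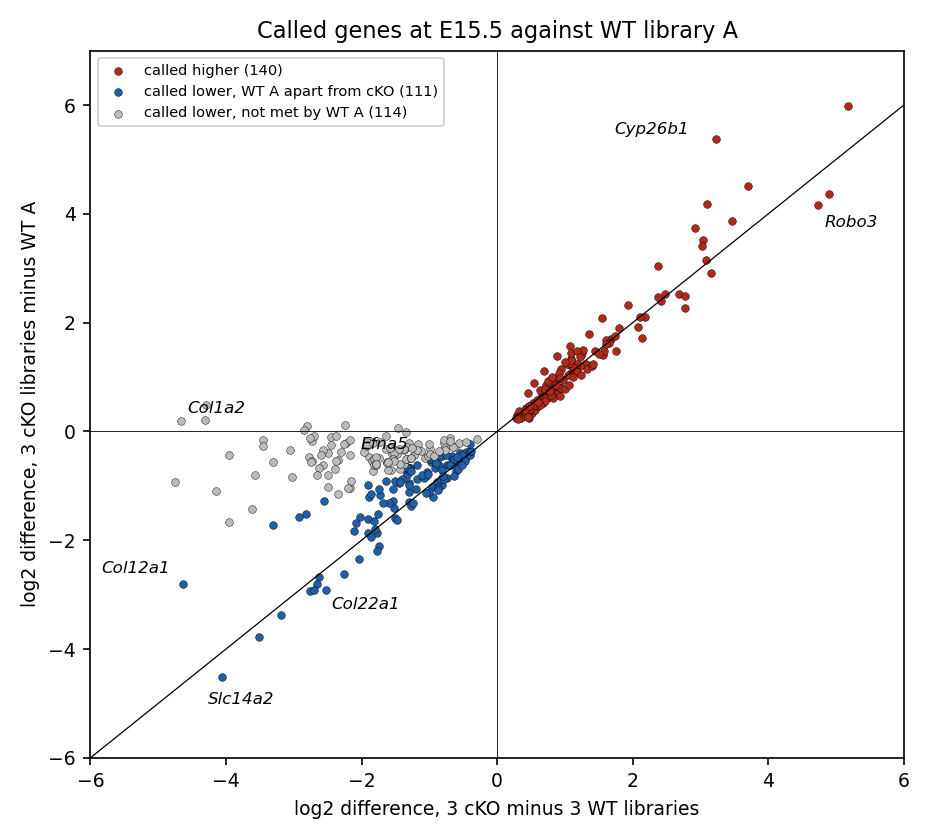
Log2 difference of cKO from all 3 WT libraries (x axis) against the difference from WT A alone (y axis) for every called gene, with the line of equality. The 140 higher genes follow the line, while the 114 lower genes in grey lie near or above 0.5 times the fitted difference when set against WT A.

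The promoters of 4 genes that rose are printed because their rises recur below: the axon guidance receptor Robo3, the GABA-A receptor subunits Gabrg1 and Gabra2, which are neighbours, and the retinoic acid hydroxylase Cyp26b1. They are RefSeq sequences on GRCm38.p6, all on the minus strand, 250 bases before and 50 after the start, with the bases from the start on in capitals. Robo3 is chr9:37433126-37433425, Gabrg1 is chr5:70842568-70842867, Gabra2 is chr5:71095800-71096099 and Cyp26b1 is chr6:84593761-84594060.
Robo3: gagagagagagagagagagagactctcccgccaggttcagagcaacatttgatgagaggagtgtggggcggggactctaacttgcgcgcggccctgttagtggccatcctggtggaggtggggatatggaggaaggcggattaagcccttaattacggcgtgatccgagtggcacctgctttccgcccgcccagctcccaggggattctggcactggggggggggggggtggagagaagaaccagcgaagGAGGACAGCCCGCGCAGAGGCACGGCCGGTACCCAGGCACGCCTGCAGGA
Gabrg1: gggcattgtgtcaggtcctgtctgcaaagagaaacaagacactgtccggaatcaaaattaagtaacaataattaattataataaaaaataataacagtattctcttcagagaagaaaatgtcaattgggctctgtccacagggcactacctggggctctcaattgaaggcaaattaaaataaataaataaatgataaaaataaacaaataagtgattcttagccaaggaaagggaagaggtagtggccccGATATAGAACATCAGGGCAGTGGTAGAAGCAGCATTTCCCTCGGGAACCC
Gabra2: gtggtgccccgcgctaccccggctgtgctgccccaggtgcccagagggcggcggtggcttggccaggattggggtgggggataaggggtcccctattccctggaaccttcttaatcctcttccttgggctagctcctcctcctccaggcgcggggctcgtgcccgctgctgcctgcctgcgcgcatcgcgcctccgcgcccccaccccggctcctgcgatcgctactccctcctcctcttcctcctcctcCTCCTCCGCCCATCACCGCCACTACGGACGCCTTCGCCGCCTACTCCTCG
Cyp26b1: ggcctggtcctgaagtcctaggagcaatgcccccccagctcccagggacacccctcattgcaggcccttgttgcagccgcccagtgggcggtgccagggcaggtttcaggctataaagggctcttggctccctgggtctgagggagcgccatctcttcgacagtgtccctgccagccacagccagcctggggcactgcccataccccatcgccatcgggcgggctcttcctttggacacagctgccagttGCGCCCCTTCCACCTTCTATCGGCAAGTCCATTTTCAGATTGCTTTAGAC
G and C made up 63.3% of the Robo3 window, 38.3% of that of Gabrg1, 70.0% of that of Gabra2 and 62.3% of that of Cyp26b1. Promoter entries existed for 103 of the 140 higher genes, 78 of the 111 lower genes that held and 11085 of the 15965 tested. On both strands, AGGTCA was in 10.7% of the higher, 12.8% of the lower and 11.7% of all promoters. CTTTGA was in 13.6%, 12.8% and 11.8%, CAGATG in 10.7%, 12.8% and 11.7%, and TTGGC followed after any 5 bases by GCCAA in 0%, 0% and 0.0271%. None of these 4 motifs was in the 4 windows printed. TATAAA and CACCTG were added after the printed sequences had been read, so their matches there are no finding. TATAAA is in the Cyp26b1 window and was in 10.7%, 6.41% and 6.77% of the sets. CACCTG is in the Robo3 and Gabra2 windows and was in 17.5%, 21.8% and 17.6%.

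Robo3 had the lowest adjusted p of the 12 highest genes named. This receptor of the Robo family is best known for letting commissural axons approach the midline. It read 24.4, 8.68 and 18.9 in WT against 473, 442 and 443 in cKO. The gap, in a gene named on condition that the groups did not overlap, was 4.74 ± 0.32 (adjusted p = 1.6e-08), and 4.16 against WT A. With limma no other of the 7 Slit and Robo genes tested passed, and edgeR also called Slit3 lower, a ligand gene that differed by 0.37, in the other direction, against WT A. Robo4, its neighbour on chromosome 9 and an endothelial family member, read 178, 387 and 292 in WT against 173, 172 and 165 in cKO (-0.67 ± 0.23, adjusted p = 0.19), and -0.07 against WT A. Robo1 and Robo2, the receptors abundant in cortical neurons, differed by -0.02 and -0.31.

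A pair of GABA-A receptor genes also rose. These genes encode subunits of the chloride channel opened by the transmitter GABA. Gabra2, an alpha subunit, read 332, 310 and 308 in WT against 1363, 1476 and 1461 in cKO (2.18 ± 0.20, adjusted p = 1.1e-06). Gabrg1, a gamma subunit, read 13.7, 10.6 and 10.3 in WT against 105, 119 and 107 in cKO (3.16 ± 0.42, adjusted p = 0.00018). No overlap between the groups was a condition for naming Gabrg1, and Gabra2 had none either. Both passed without the 5 C libraries. With WT A as the only control Gabra2 passed and Gabrg1 did not (adjusted p = 0.052).

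Gabra2 and Gabrg1 lie beside Gabra4 and Gabrb1 on chromosome 5. Gabrb1, a beta subunit, read 189, 146 and 159 in WT against 403, 338 and 355 in cKO, and Gabra4, an alpha subunit, read 243, 202 and 202 against 252, 347 and 345. In both genes all 3 cKO libraries lay above all 3 WT libraries, as in 13.3% of all genes tested. Neither passed (1.15 ± 0.35, adjusted p = 0.10 and 0.53 ± 0.21, adjusted p = 0.30). Gabrb1 passed with edgeR (adjusted p = 0.040). Over the 12 subunit genes tested 2 were higher and none lower, beside 0.877% and 1.41% of all genes tested. The median difference was 0.37 beside 0.04 over all genes tested.

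**Figure D2:**
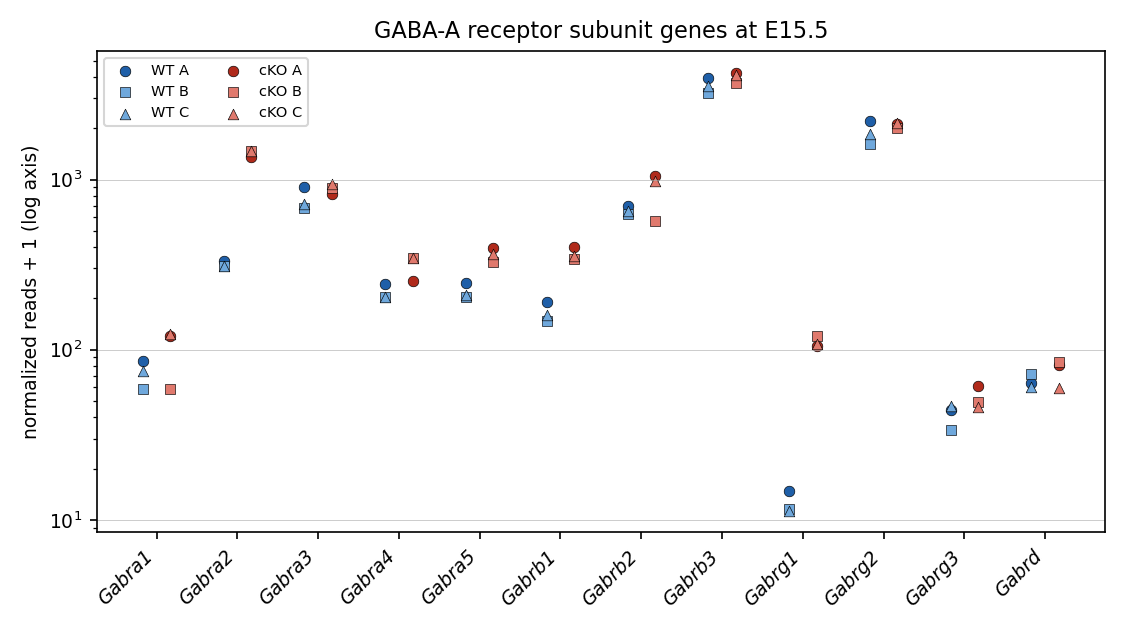
Normalized reads + 1 on a log axis for the 12 GABA-A receptor subunit genes tested, 1 point for each E15.5 library. Gabra2 and Gabrg1 show the widest gaps between WT in blue and cKO in red.

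Genes that handle retinoic acid, a diffusible regulator of gene expression made from vitamin A, rose in part. Cyp26b1, which breaks retinoic acid down, read 13.7, 197 and 91.2 in WT against 660, 562 and 598 in cKO. The difference was 3.23 ± 0.60 (adjusted p = 0.0051) and 5.37 against WT A, the lowest of the WT libraries. Rxrg, a nuclear receptor of the retinoid X family, read 5.86, 13.5 and 7.74 in WT against 81.0, 80.7 and 70.6 in cKO (3.03 ± 0.62, adjusted p = 0.011). Both genes were named on condition that the groups did not overlap.

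Dhrs3, which turns retinaldehyde back into retinol, read 63.5, 93.6 and 91.2 in WT against 161, 179 and 184 in cKO (1.09 ± 0.21, adjusted p = 0.0081). With limma 4 of the 13 genes tested were higher and none lower, beside 0.877% and 1.41% of all genes tested. At an unadjusted p under 0.05, 4 were higher and 2 lower, beside 3.56% and 6.26% of all genes tested. edgeR also called Crabp1 lower, a carrier gene that differed by 0.65, in the other direction, against WT A. The median of the list was -0.13, and 0.17 against WT A. The receptors Rara, Rarb and Rarg differed by -0.13, -0.56 and -0.55 and did not pass, and by 0.18, -0.08 and -0.12 against WT A. With WT A alone 2 of the 4 passed, and without the 5 C libraries none did.

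Among FGF genes, which encode growth factors and their receptors, Fgf15 and Fgfr3 rose. The ligand gene Fgf15 read 3.91, 0 and 6.88 in WT against 108, 98.0 and 95.1 in cKO (4.90 ± 0.79, adjusted p = 0.0013). All WT libraries were near 0, so the gene passed the filter through cKO alone. Its exons overlap the antisense gene Gm26793, which was called too, and the sources used here do not say whether the counting used strand. Exons of Prdm16, Mecom, Prox1, Dio2, Fgfr3, Col22a1, Angptl1, Ltbp2, Igf2 and Sfrp2 also overlap a gene on the opposite strand. The receptor gene Fgfr3 read 2832, 3162 and 2928 in WT against 4878, 4805 and 4853 in cKO (0.71 ± 0.18, adjusted p = 0.044). Without the 5 C libraries Fgf15 passed and Fgfr3 did not (limma adjusted p = 0.039 and 0.80). The other 15 of 17 genes tested did not pass, among them the response gene Etv4 (0.70 ± 0.27, adjusted p = 0.27), and the median was -0.02. Limma called 0.877% of all genes tested higher.

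Of 9 thyroid hormone genes tested, 1 was higher and 1 lower, beside 0.877% and 1.41% of all genes tested. Dio2, the deiodinase that activates the hormone, read 166, 130 and 172 in WT against 32.8, 49.0 and 55.2 in cKO (-1.77 ± 0.28, adjusted p = 0.0013). The receptor gene Thrb read 126, 110 and 117 in WT against 372, 321 and 365 in cKO (1.57 ± 0.37, adjusted p = 0.028). Neither gene's groups overlapped, as in 7.87% of all genes tested toward lower and 13.3% toward higher values in cKO. Without the 5 C libraries neither passed (limma adjusted p = 0.056 for Dio2 and 0.62 for Thrb). Against WT A Dio2 differed by -1.87 and Thrb by 1.47. The other 7 of the 9 genes tested did not pass.

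The highest 12 also held Ptx3, Sfrp4 and Tll1. Ptx3, a secreted pattern recognition protein, read 764, 834 and 771 in WT against 4267, 4641 and 4274 in cKO (2.47 ± 0.38, adjusted p = 0.00093). Sfrp4, a secreted WNT antagonist, read 31.3, 31.8 and 30.1 against 171, 174 and 166 (2.42 ± 0.34, adjusted p = 0.00025). Tll1, a protease that releases BMP ligands from chordin, read 1.95, 12.5 and 5.16 against 54.3, 46.1 and 58.3 (3.10 ± 0.46, adjusted p = 0.00052). Groups without overlap were a condition for naming each of these genes. None of the 3 passed without the 5 C libraries (limma adjusted p = 0.10 for Ptx3, 0.055 for Sfrp4 and 0.099 for Tll1).

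Tacr1 and Tac2 belong to the tachykinin system of neuropeptides. The receptor gene Tacr1 read 22.5, 21.2 and 16.3 in WT against 158, 105 and 144 in cKO (2.69 ± 0.28, adjusted p = 7.0e-06). The peptide gene Tac2 read 12.7, 15.4 and 12.9 in WT against 53.3, 89.3 and 87.9 in cKO (2.37 ± 0.34, adjusted p = 0.00041). That every cKO library lay above every WT library was a condition for naming both. Pdlim3, a cytoskeletal adaptor of muscle, rose by 3.46 and Pdzd3, a PDZ scaffold protein, by 2.77.

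**Figure D3:**
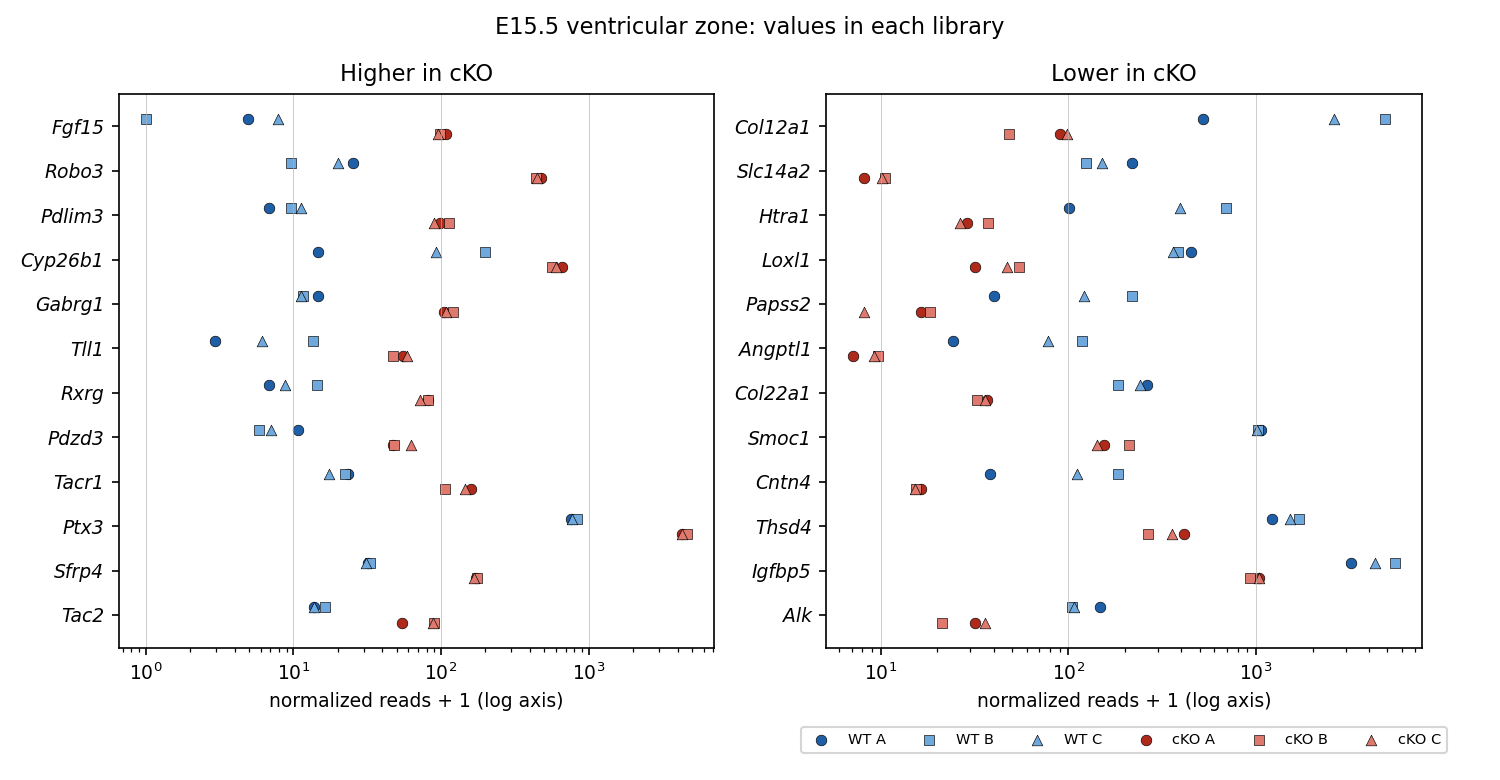
Normalized reads + 1 on a log axis in each E15.5 library for the 12 highest and the 12 lowest genes named that held against WT A. In Col12a1, Htra1, Papss2, Angptl1 and Cntn4 the WT B and WT C points lie far to the right of WT A, while in Slc14a2, Loxl1, Col22a1, Smoc1 and Alk they do not.

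Some lower genes, among them Col22a1, Smoc1 and Loxl1, did not have higher values in WT B and C than in WT A. Col22a1, a collagen of tissue junctions, read 263, 183 and 239 in WT against 35.9, 31.7 and 34.8 in cKO (-2.69 ± 0.15, adjusted p = 7.2e-10). Smoc1, a secreted calcium-binding matrix protein, read 1060, 1025 and 1011 against 155, 209 and 141 (-2.63 ± 0.16, adjusted p = 4.1e-09). Loxl1, which crosslinks elastin, read 450, 384 and 359 against 30.8, 53.8 and 46.0 (-3.19 ± 0.33, adjusted p = 7.0e-06). All 3 were named on condition that the groups did not overlap, and WT A was the highest WT library in each.

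The urea transporter gene Slc14a2 read 218, 124 and 150 in WT against 7.18, 9.60 and 9.20 in cKO (-4.06 ± 0.40, adjusted p = 3.4e-06). It passed the filter through WT alone. Thsd4, a matrix protein of microfibrils, read 1208, 1696 and 1514 against 410, 264 and 355 (-2.11 ± 0.23, adjusted p = 1.0e-05). The receptor tyrosine kinase gene Alk read 146, 103 and 107 against 30.8, 20.2 and 34.8 (-2.03 ± 0.39, adjusted p = 0.0066). Separate groups were a condition for naming all 3 genes. Slc14a2 and Thsd4 also passed without the 5 C libraries. Against WT A, Slc14a2 differed by -4.51, Thsd4 by -1.84 and Alk by -2.34.

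Other lower genes held but were far higher in WT B and C than in WT A. Col12a1, a fibril-associated collagen, read 522, 4838 and 2589 in WT against 89.2, 47.1 and 97.1 in cKO, a difference of -4.64 that was -2.80 against WT A. Htra1, a secreted protease, read 99.6, 690 and 394 against 27.7, 36.5 and 25.6 (-3.30, and -1.72 against WT A). The same order of WT libraries was seen in Papss2, Angptl1 and Cntn4, and in 41 of the 111 genes that held WT B was over 1.5 times WT A. The part of the skin and connective tissue transcripts in these values was not tested.

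Genes that did not hold were in part markers of those tissues. Col1a2, a collagen of fibroblasts, read 129, 28829 and 14367 in WT against 106, 267 and 113 in cKO, and the groups overlapped. Against WT A its difference was 0.19, of opposite sign. Of the 10 genes of meninges and fibroblasts tested 3 were lower, where 1.41% of all genes tested were. The median of this list was -3.66, and 0.34 against WT A. Of the 6 epidermal genes tested 2 were lower, Col17a1 and Perp, with a median of -2.83 that was -0.13 against WT A.

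Few members of the cortical cell type lists passed, as did few of all genes tested (0.877% higher and 1.41% lower). Low counts in such short lists are thus no finding. Of 18 radial glia genes 1 was higher and 1 lower, with a median of 0.23 beside 0.04 over all genes tested. At an unadjusted limma p under 0.05, 9 were higher and 1 lower, beside 3.56% and 6.26% of all genes tested. Ednrb, an endothelin receptor, read 1474, 1360 and 1462 in WT against 2347, 2379 and 2318 in cKO (0.71 ± 0.14, adjusted p = 0.0081). Mfge8, a secreted glycoprotein, read 2782, 2580 and 2674 against 1440, 1532 and 1556 (-0.83 ± 0.12, adjusted p = 0.00052). Neither gene's groups overlapped, and neither passed without the 5 C libraries (limma adjusted p = 0.31 for Ednrb and 0.068 for Mfge8). The 18 radial glia genes summed to 105192 to 129155 normalized reads in the 6 libraries. The 14 genes of postmitotic neurons summed to 285153 to 358419, so tissue labelled ventricular zone held neuronal transcripts in every library.

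With limma no gene passed among 12 of intermediate progenitors (median -0.12), 12 of upper-layer neurons (-0.31), 12 of deep-layer neurons (0.26) or 9 of Cajal-Retzius cells (0.38). Against WT A the medians were -0.23, -0.44, 0.12 and 0.39. At an unadjusted p under 0.05 the intermediate progenitor list had 1 higher and 2 lower genes, the upper-layer list 0 and 4, the deep-layer list 3 and 0 and the Cajal-Retzius list 1 and 0. Over all genes tested 3.56% were higher and 6.26% lower at that threshold. edgeR called 1 deep-layer gene higher and none in the other 3 lists. The upper-layer factor gene Pou3f2 read 13011, 9716 and 11051 in WT against 8068, 7308 and 8102 in cKO (-0.52 ± 0.17, adjusted p = 0.16). The deep-layer factor gene Bcl11b read 14046, 12304 and 12902 against 18555, 17708 and 18285 (0.48 ± 0.18, adjusted p = 0.26). The groups did not overlap in either gene, as in 7.87% of all genes tested toward lower and 13.3% toward higher values in cKO. None of 16 DNA replication genes and none of 16 mitosis genes passed, with medians of 0.01 and -0.15 that were 0.03 and -0.03 against WT A. At an unadjusted p under 0.05 these lists had 0 and 1 genes, and edgeR called 0 in both. In bulk tissue, fewer cells of a type and less RNA per cell cannot be told apart.

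**Figure D4:**
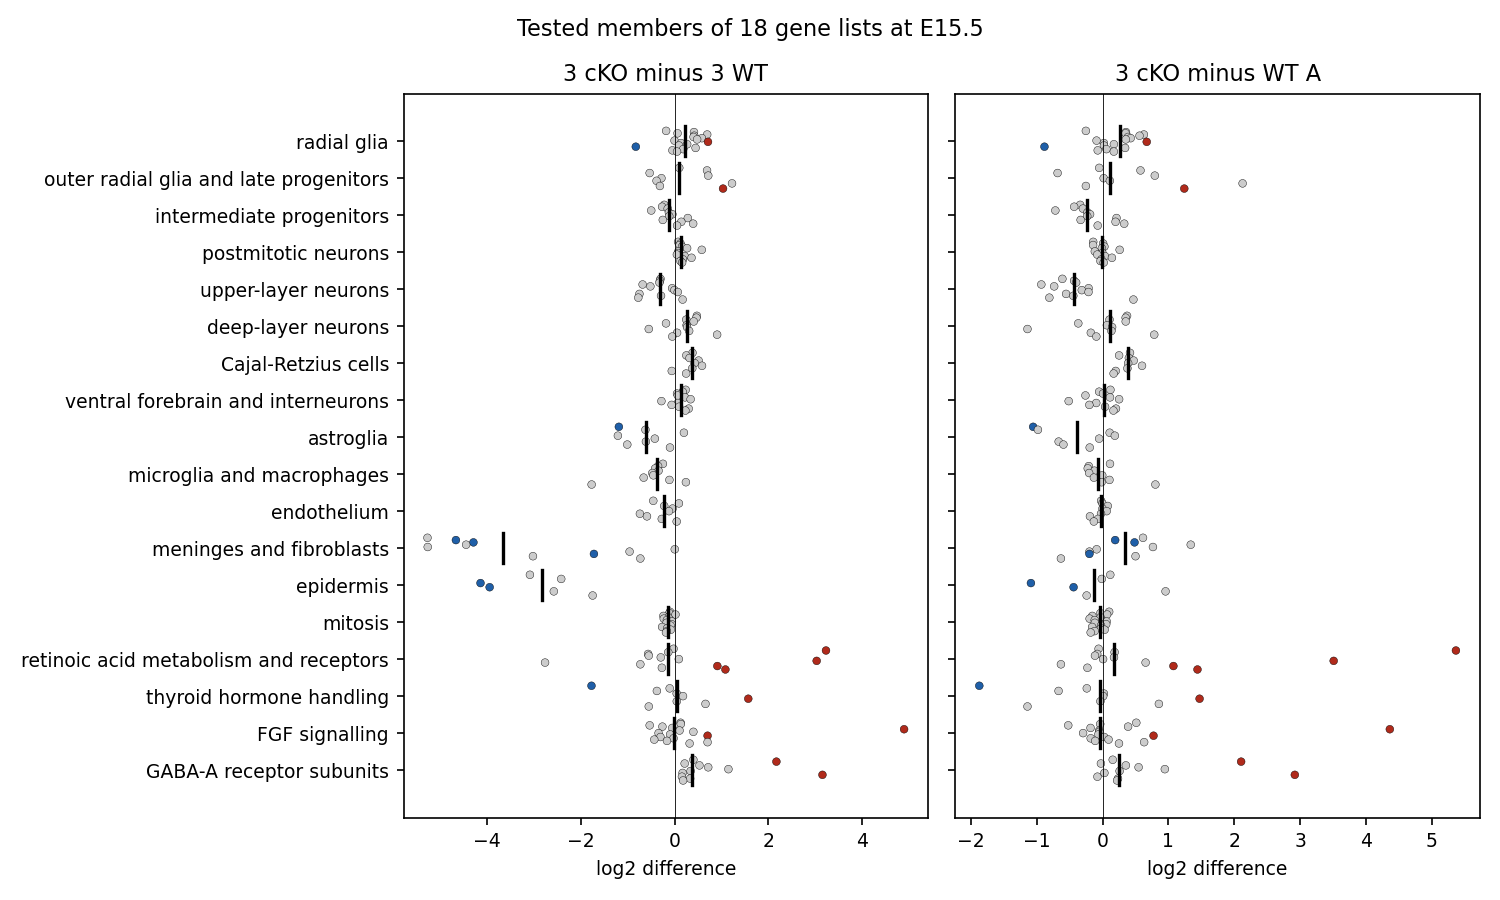
Log2 differences at E15.5 of the tested members of 18 gene lists, from all 3 WT libraries on the left and from WT A on the right; red was called higher, blue lower, grey neither, and bars are medians. The medians of the meninges and epidermis lists move from -3.66 and -2.83 to 0.34 and -0.13.

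Among 8 astroglial genes tested 1 was lower, the water channel gene Aqp4, where 1.41% of all genes tested were, and edgeR called 3 lower. Aqp4 read 39.1, 41.5 and 49.0 in WT against 20.5, 15.4 and 19.4 in cKO (-1.19 ± 0.29, adjusted p = 0.033), without overlap. Against WT A it differed by -1.05, and without the 5 C libraries it did not pass (limma adjusted p = 0.73). The median of the astroglial list was -0.62, and -0.39 against WT A. With limma none of 10 genes of microglia or 9 of endothelium passed. At an unadjusted p under 0.05, 3 and 2 were lower, where 6.26% of all genes tested were. By edgeR 1 microglial gene was lower and no endothelial one. Their medians of -0.38 and -0.22 were -0.07 and -0.02 against WT A.

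Jag1, Bmper and Prox1 passed in the NOTCH, BMP and hippocampal lists. The NOTCH ligand gene Jag1 read 517, 787 and 654 in WT against 368, 313 and 367 in cKO (-0.88 ± 0.18, adjusted p = 0.011), and was the 1 gene of 15 NOTCH genes tested that passed. Against WT A it differed by -0.57, and with WT A as the only control it did not pass. Bmper, a secreted BMP regulator, read 847, 732 and 726 against 1137, 1200 and 1158 (0.60 ± 0.13, adjusted p = 0.017). The hippocampal transcription factor gene Prox1 read 106, 124 and 122 against 242, 238 and 268 (1.08 ± 0.26, adjusted p = 0.033). The groups did not overlap in any of these genes.

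Mecom, the closest relative of Prdm16, was the gene of 12 tested in the PRDM family that passed, where 0.877% of all genes tested were higher. It read 60.6, 110 and 83.5 in WT against 222, 188 and 225 in cKO (1.35 ± 0.22, adjusted p = 0.0012). Pdzrn3, a ubiquitin ligase gene, read 4528, 4218 and 4416 against 6829, 6964 and 7028 (0.66 ± 0.15, adjusted p = 0.021). Both rose without overlap, but neither passed without the 5 C libraries (limma adjusted p = 0.14 for Mecom and 0.55 for Pdzrn3). Ppargc1a, a coactivator of mitochondrial genes, read 350, 313 and 355 against 307, 283 and 309 and did not pass (-0.18 ± 0.13, adjusted p = 0.91).

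The genes that rose at E15.5 were mostly higher at E17.5 too. Of the 140 higher genes, 117 (83.6%) were called higher at E17.5, where 20.0% of all genes tested were, and 6 were called lower. These 117 are 3.66% of the 3197 genes higher at E17.5. The median difference of the 140 genes was 1.64 at E17.5 beside -0.04 over all genes tested, and at E13.5 it was 0.23 beside -0.03. Of the 111 lower genes that held, 25 were lower and 29 higher at E17.5, where 23.5% and 20.0% of all genes were. All days were fitted with 1 estimate of the spread per gene, so calls on different days are not independent, and the E17.5 libraries labelled cKO read higher for Prdm16.

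The difference between days was tested itself. The cKO difference at E15.5 differed from that at E13.5 in 1090 genes (6.83%) and from that at E17.5 in 5068 (31.7%). Among the 140 higher genes 69 differed from E13.5 and 84 from E17.5, and in 63 of these 84 the difference was larger at E17.5. From E13.5 through E15.5 to E17.5, Robo3 differed by 0.71, 4.74 and 3.38. Fgf15 differed by -0.40, 4.90 and 6.61, and Gabra2 by 1.24, 2.18 and 0.56. Gabrg1, in contrast, differed by 2.85, 3.16 and 3.29, and no difference between days was called.

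**Figure D5:**
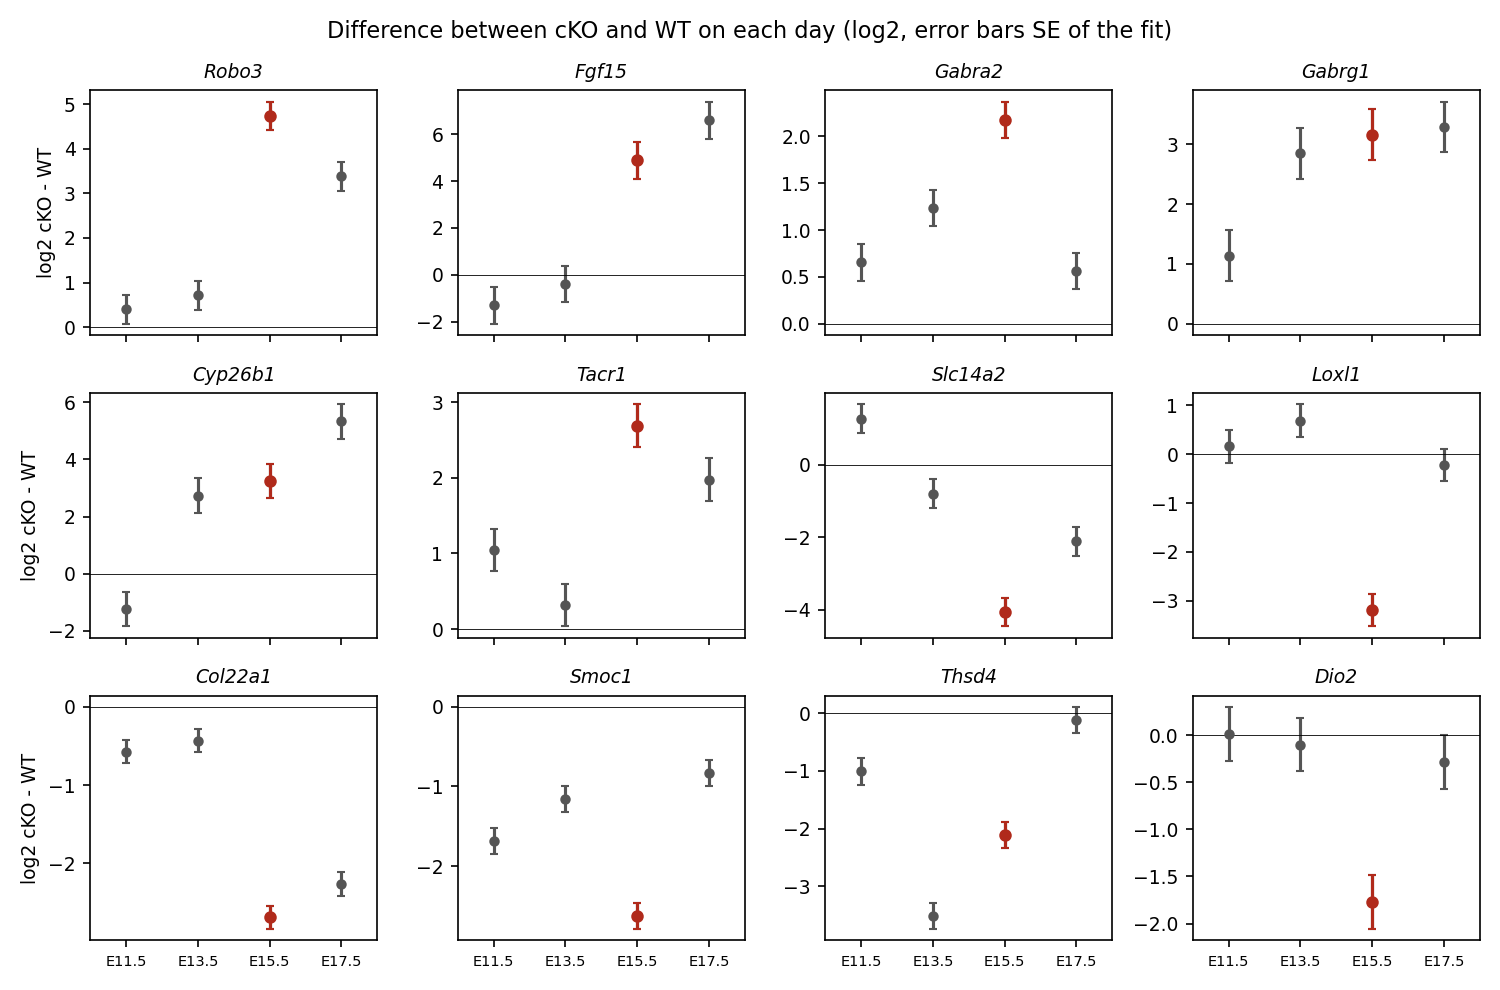
Log2 difference of cKO from WT on each day for 12 genes, with the SE of the fit. That SE rests on 1 estimate of the spread per gene over all 24 libraries, so it is the same on every day. E15.5 is red and each panel has its own scale. Robo3 goes from 0.71 at E13.5 to 4.74 at E15.5, and Loxl1 and Dio2 are low at E15.5 alone among the days plotted.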

How the data were processed

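PolyA-selected RNA was sequenced after stranded TruSeq preparation, per the labels' protocols. The authors deposited 1 signal table, a read count for each gene in each library divided by a size factor. The tools were DESeq 1.22.1, HTSeq 0.5.3, STAR 2.5.0a and cutadapt 1.6 with mm10 (GRCm38), per the submitters' processing notes. The sources used here do not give the annotation release, the strand setting or the handling of reads matching several genes. Whole reads were recovered from the deposited values, of which 100% came out whole within 0.01.

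Values were tested as log2(value + 1) with limma 3.58.1 in R 4.3.3, with a trend in the prior variance, 1 mean for each of 8 groups over 24 libraries, two-sided tests and Benjamini-Hochberg adjustment over 15965 genes at 0.05. Fold changes on this scale understate those of low genes. On the recovered reads, edgeR 4.0.16 called 144 genes higher and 433 lower. Gene coordinates are those of GENCODE M21, which matched 99.5% of identifiers. The test was run on simulated data with independent libraries. These had no mixed C libraries and no tissue differences within WT, so they cannot show how the test behaves under either.

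Genes named were Prdm16, Mecom, Pdzrn3 and Ppargc1a, the 12 highest and 12 lowest passing genes that held against WT A, reaching a mean of 50 in their higher group without overlap, the 5 lowest that did not hold, and up to 3 passing members of each list. Predicted genes were counted, not named, except where an overlap needed it, and other list members are named without a call as examples chosen after their values were seen. Some genes that passed are counted but not reported here. The members and lists were chosen with earlier results of these data known. Alternatives were the pseudocount, the filter, TMM factors, no trend, the days fitted, the letter as a block, libraries left out, edgeR and a minimum size of difference. The promoter motifs TATAAA and CACCTG, and the count of calls shared with E17.5 without the C libraries, were added after seeing the data.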

Additional observations from a re-analysis of the deposited data

Results flagged for a closer look

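The genes below are listed because a limma test of the difference itself, over all 15965 genes, found the cKO difference at E15.5 unlike that on another day. Values are log2, the E15.5 difference minus that of the other day. The genes were named for their E15.5 difference, which favours a gap to other days, and at E17.5 the libraries labelled cKO read higher for Prdm16. Groups of 3 libraries were not searched for single outlying values.

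Against E13.5, the E15.5 difference was higher in Prdm16 (1.38), Ppargc1a (0.80), Fgf15 (5.30), Robo3 (4.02), Pdlim3 (2.38), Rxrg (3.22), Pdzd3 (1.31), Tacr1 (2.37), Ptx3 (2.17), Sfrp4 (2.26), Tac2 (2.03), Thsd4 (1.41), Ednrb (0.71), Thrb (2.40) and Gabra2 (0.94). It was lower in Slc14a2 (-3.27), Htra1 (-3.43), Loxl1 (-3.88), Papss2 (-2.88), Angptl1 (-2.39), Col22a1 (-2.26), Smoc1 (-1.47), Igfbp5 (-2.61), Col17a1 (-4.39), Mfge8 (-1.07), Perp (-4.88), Dio2 (-1.67) and Sfrp2 (-1.38). Col17a1, Perp and Sfrp2 did not hold against WT A at E15.5, and WT B and C held the skin and connective tissue transcripts; their part in these gaps was not tested.

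Against E17.5, the E15.5 difference was higher in Mecom (0.81), Robo3 (1.35) and Gabra2 (1.61). It was lower in Prdm16 (-0.95), Pdzrn3 (-1.34), Pdlim3 (-3.73), Sfrp4 (-1.32), Tac2 (-2.64), Col12a1 (-3.48), Slc14a2 (-1.96), Loxl1 (-2.98), Angptl1 (-2.39), Smoc1 (-1.80), Thsd4 (-1.99), Col17a1 (-4.72), Ltbp2 (-5.10), S100a6 (-3.85), Nt5e (-4.80), Mfge8 (-2.26), Ednrb (-1.40), Cdo1 (-1.08), Aqp4 (-1.74), Igf2 (-1.76), Col9a1 (-2.50), Dhrs3 (-1.99), Dio2 (-1.49), Fgfr3 (-1.01), Sfrp2 (-1.52) and Bmper (-1.59). Among these Col17a1, Ltbp2, S100a6, Nt5e, Igf2 and Sfrp2 did not hold against WT A at E15.5.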

How the results depend on the processing

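The count of higher genes at E15.5 (140) was 290 with only the days compared in the fit, 45 with WT B and C of E15.5 left out, 28 without the 5 C libraries and 63 with an absolute log2 difference of at least 1. The count of lower genes (225) was 435 with no filter, 11 with WT B and C left out, 11 without the 5 C libraries and 433 with edgeR. The count of genes differing from E13.5 (1090) was 27, 10 and 519 with WT B and C left out, without the 5 C libraries and with the minimum size. That from E17.5 (5068) was 2603, 2770 and 2507 under the same 3 settings. Leaving out each E15.5 library in turn gave 71 to 154 higher genes, 54 to 678 lower genes, 241 to 1550 genes differing from E13.5 and 4108 to 5226 from E17.5; the lower count was 678 without WT A, 54 without WT B and 57 without WT C. The cause of these moves was not tested beyond the fewer libraries in each fit. With WT B and C left out, Col1a2 (0.19) and Col3a1 (0.49) turned in direction.

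With the letter as a replicate block, 78 genes were higher, 129 lower, 412 differed from E13.5 and 4111 from E17.5. Deviations of same-letter libraries at E15.5 correlated at 0.03 for A, 0.01 for B and -0.02 for C across genes, so the letters were not taken as pairs. Of the 28 genes higher without the 5 C libraries, 28 were also higher at E17.5, where 20.0% of all genes tested were. Of the 11 lower, 7 were lower at E17.5, where 23.5% of all genes tested were. The E17.5 calls came from the fit with all 24 libraries, the C libraries among them. Of 51 named genes that passed, 13 also passed without the 5 C libraries, 17 with WT A alone and 51 with edgeR. Genes near the filter's minimum of 10 rest on few reads, so their differences are the least certain.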

Other observations

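Among the 34 genes that passed with all libraries, with WT A alone, without the 5 C libraries and with edgeR, several lay outside the naming rule and were chosen after their values were seen. Rcan2, a regulator of calcineurin, read 461, 485 and 463 in WT against 1543, 1571 and 1576 in cKO (1.73 ± 0.10, limma adjusted p = 7.2e-10). Itga6, a laminin receptor subunit of progenitor cells, read 2272, 2976 and 2538 against 6290, 5949 and 6256 (1.26 ± 0.12, limma adjusted p = 2.3e-06). Dmrta1, a DMRT family transcription factor gene, read 118, 142 and 124 against 434, 435 and 466 (1.79 ± 0.17, limma adjusted p = 1.6e-06). These 3 genes rose in every cKO library.

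The metabolic enzyme genes Glud1 and Gpd1 differed by 0.75 and 1.44, and the tight junction gene Cldn11 by 3.08. The lower genes included the AMP deaminase gene Ampd3 (-1.81), the WNT receptor gene Fzd5 (-2.76) and Palmd (-1.27).

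Transcripts tied to sex differed between the cKO libraries. Xist, transcribed from the inactive X chromosome, was at 8.79, 8.68 and 4.30 in the WT libraries, in the order A, B, C, against 10.3, 48065 and 16386 in cKO. The Y-linked gene Ddx3y read 2307, 2425 and 2226 in WT against 2476, 0 and 1727 in cKO. cKO B thus held Xist and no Ddx3y reads, cKO C held both, and the 3 WT libraries and cKO A held Ddx3y with Xist near 0.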
